A study of Mus musculus with 12 samples.

Results

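Interferon response genes were followed in H9c2 cells by 9 members, namely the transcription factors Stat2, Irf1, Irf7 and Irf9 and the interferon-stimulated genes Isg15, Ifit1, Ifit2, Ifit3 and Rsad2. The members were chosen by gene symbol, and each symbol had exactly 1 row among the 54345 genes of the deposited table. All 9 members were among the 25044 genes tested, which had an FPKM (fragments counted on a gene per kilobase of its length, after library scaling) above 0 in at least 3 of the 12 libraries.

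Poly(A) RNA was sequenced from H9c2(2-1), a cardiomyoblast line labelled as wild type and as a myoblast, after 6 h in 4 conditions with 3 libraries each. Cells were left untreated (Unt), or received doxorubicin alone (DOX, an anthracycline chemotherapeutic), doxorubicin with dexrazoxane (D_DXZ, a clinically used cardioprotectant) or doxorubicin with magnesium hexacyanoferrate nanocatalysts (D_MgHCF, a material made to capture iron and to act as an antioxidant). Neither dexrazoxane nor MgHCF was given without doxorubicin, and the doses in the sequenced cells are not given in the sources used here. Nothing in the labels says that the 3 libraries of a group came from separate cultures, so p-values measure only the spread between these samples, which may be technical. The paper describes the line as rat, whereas the labels give Mus musculus and the genes carry mouse Ensembl identifiers. The effect of this on single genes was not tested.

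Between 16626514 and 19365119 reads fell on genes in each library. Over all genes, log2(FPKM + 1) correlated between replicates with a Pearson r of 0.957 to 0.988 in D_MgHCF and of 0.991 or more in each other group. In D_MgHCF, 23368 to 25456 genes had reads, compared with 18530 to 20660 in the other libraries. Of the 12 myoblast markers, 4 had a mean of at least 1 FPKM in Unt and 3 in each other group. Myod1, Myf5 and Myog stayed at or below 0.126 FPKM in every library. Actc1, Myh7, Nkx2-5 and Tnnt2 did not exceed 0.153, 0.0276, 0.321 and 0.970 FPKM, and Des and Mef2c did not exceed 1.57 and 1.02 FPKM. Vim ranged from 93.4 to 1136 FPKM, Acta2 from 208 to 2032 FPKM and Gata4 from 2.17 to 25.5 FPKM. The leukocyte marker Ptprc did not exceed 0.0129 FPKM and Adgre1 did not exceed 0.0147 FPKM. The 7 leukocyte markers in the table summed to between 1.04 and 1.23 FPKM in Unt, 3.16 and 3.87 FPKM in DOX, 4.16 and 4.73 FPKM in D_DXZ and 2.08 and 5.61 FPKM in D_MgHCF, mostly from Cd68, and their part in the results was not tested. The 8 endothelial and epithelial markers summed to 0.0977 to 0.251 FPKM in Unt, at most 0.419 FPKM in DOX, at most 0.243 FPKM in D_DXZ and 0.687 to 2.71 FPKM in D_MgHCF. Of these 8 markers, 4 were called higher in D_MgHCF against Unt, 6 against DOX and 5 against D_DXZ, with 0 lower. The shares of all genes tested were 24.3%, 31.4% and 29.4% higher and 15.7%, 20.1% and 19.0% lower. The part of these markers in the results was also not tested.

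As background, type I interferons signal through a receptor with the kinases JAK1 and TYK2, which phosphorylate STAT proteins, among them STAT2. STAT2 and IRF9 are subunits of the ISGF3 complex, which binds the interferon-stimulated response element (ISRE) and induces genes with antiviral functions. Interferon gamma acts mainly through the gamma-activated site (GAS), of which Irf1 is a classic target. IRF7 is itself induced by interferon and amplifies the transcription of further interferon genes. Isg15, the Ifit genes and Rsad2 are commonly read as the output of the pathway.

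The promoters of the members were examined first, because the ISRE and the GAS are the sequences through which the pathway reaches these genes. The RefSeq table (GRCm38.p6) held 12 promoter entries for the 9 members, each from 250 bases before to 50 bases after a transcription start. The 9-letter ISRE core GAAANNGAA, searched on both strands, was found for 5 members and in 8.56% of all 32851 promoters of the table. At least 2 matches occurred in 0.624% of them. The stretches below hold the matches in capitals with up to 12 bases on each side, written 5′ to 3′ on the strand of the gene. Isg15 (minus strand, chr4:156200864-156200908) held 3 overlapping matches from 78 to 58 bases before its start. Ifit1 (plus strand, chr19:34640768-34640825) held 3 between 109 and 76 bases before the start, of which 2 overlapped, and Ifit3 (plus strand, chr19:34583362-34583447) held 3 between 155 and 94 bases before it. Rsad2 (minus strand, chr12:26456551-26456583) and Stat2 (plus strand, chr10:128270265-128270297) held 1 match each.
Isg15: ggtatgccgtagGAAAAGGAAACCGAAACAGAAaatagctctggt
Ifit1: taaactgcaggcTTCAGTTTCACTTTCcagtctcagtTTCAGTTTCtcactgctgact
Ifit3: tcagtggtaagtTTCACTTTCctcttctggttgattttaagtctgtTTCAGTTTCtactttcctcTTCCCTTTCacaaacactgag
Rsad2: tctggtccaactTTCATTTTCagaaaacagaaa
Stat2: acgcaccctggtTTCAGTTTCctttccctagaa

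Irf1 is shown for the other element. The GAS core TTCNNNGAA, which reads the same on both strands, was held by 2 members and by 8.30% of all promoters. In Irf1 (plus strand, chr11:53769912-53769944) the match began 90 bases before the start, and it is given in capitals below. In Ifit2 it began 241 bases before 1 of the 2 starts listed. Neither core was found in the windows of Irf7 and Irf9, which says only that these letters are not there. The windows of Irf9 begin at 55603735 and 55604329, downstream of the gene start in the deposited table (55603571). Sequence before that start was not searched.
Irf1: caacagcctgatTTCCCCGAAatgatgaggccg

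The members were then compared between the groups with limma on log2(FPKM + 1), and a gene was called at a Benjamini-Hochberg adjusted p under 0.05 over all genes tested. DOX against Unt gave 1 member called higher and 2 called lower, where 18.6% of all genes were called higher and 19.9% lower. For D_DXZ against Unt the counts were again 1 higher and 2 lower, with 15.9% and 18.0% of all genes. D_MgHCF against Unt gave 1 higher and 1 lower, with 24.3% and 15.7% of all genes. In these 3 comparisons, which share the Unt libraries, the share of members called was near that of all genes in this fit, where the 4 groups share 1 spread. With only the 2 groups compared in the fit, DOX against Unt gave 1 member higher and 5 lower, with 5416 and 5764 of 25044 genes. D_DXZ against Unt then gave 1 higher and 7 lower, with 4847 and 5671 genes, and D_MgHCF against Unt again 1 and 1, with 3349 and 2869. D_DXZ against DOX gave no member higher or lower, and 0% of all genes were called in either direction. At an unadjusted p under 0.05, 1 member (Irf9) was above and 0 were below DOX in D_DXZ, with 4.56% of all genes higher and 4.97% lower, and with voom on the recovered reads no member was called. D_MgHCF against DOX gave 4 of 9 members higher and 0 lower, with 31.4% and 20.1% of all genes. D_MgHCF against D_DXZ gave 6 of 9 higher and 0 lower, with 29.4% and 19.0% of all genes. Where groups are said below not to overlap, this was common among all genes tested. The libraries of Unt did not overlap those of DOX for 6 members and 51.8% of all genes, of D_DXZ for 8 and 50.4%, and of D_MgHCF for 3 and 48.9%. Those of DOX did not overlap D_DXZ for 3 members and 16.3% of all genes, and D_MgHCF for 3 and 53.2%.

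**Figure D1:**
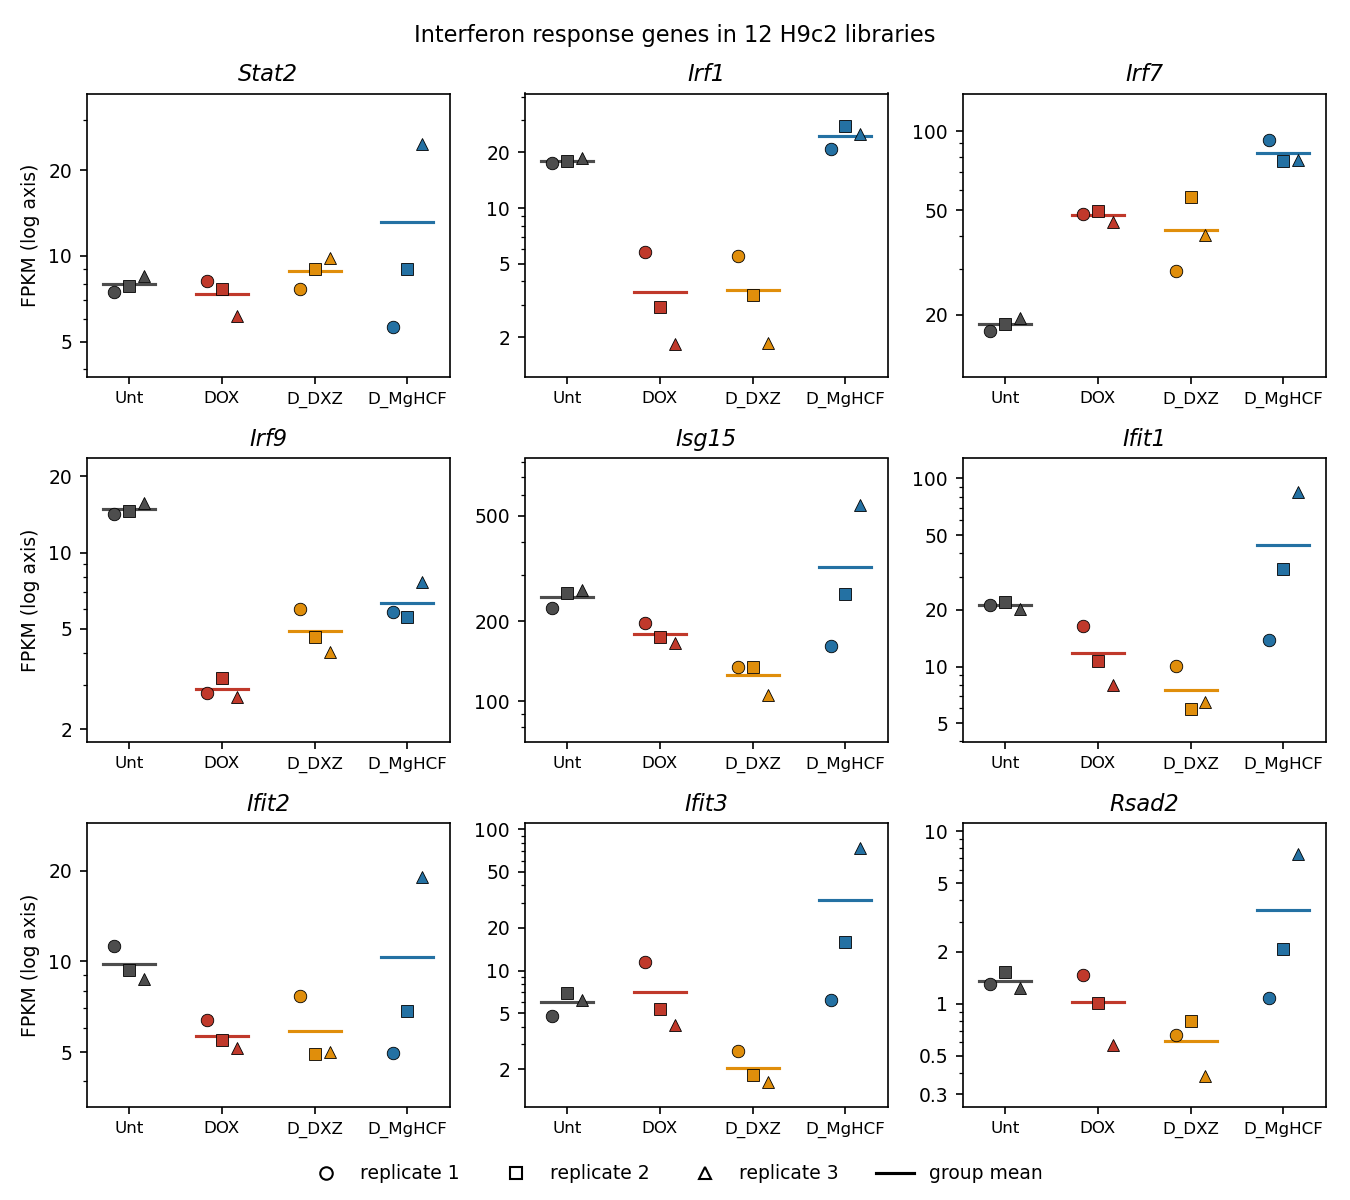
FPKM (log axis) of the 9 members in the 12 libraries, by group, with a symbol for each replicate number and a line at the group mean. Irf1 and Irf9 are low in DOX and D_DXZ, Irf7 is highest in D_MgHCF, and 6 members are spread widely within D_MgHCF, where replicate 3 (triangle) is their highest library.

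Among the regulators, the ISGF3 subunit Irf9 (ENSMUSG00000002325, chromosome 14, 55603571 to 55610030, plus strand) fell under doxorubicin. It measured 14.2, 14.6 and 15.7 FPKM in Unt and 2.78, 3.20 and 2.68 FPKM in DOX. With dexrazoxane it measured 6.00, 4.62 and 4.06 FPKM, and with MgHCF 5.81, 5.59 and 7.64 FPKM. All 9 doxorubicin-treated libraries were below all Unt libraries, and neither D_DXZ nor D_MgHCF overlapped DOX. A smaller share of cells with Irf9 RNA and less Irf9 RNA per cell cannot be told apart in bulk RNA. Mean levels were 14.8 ± 0.775 FPKM in Unt and 2.88 ± 0.275 FPKM in DOX (SD, n = 3 each), a 5.14-fold difference, with a limma log2 fold change of -2.03 ± 0.14 (SE, adjusted p = 1.09e-05). Irf9 was also lower than in Unt in D_DXZ (-1.44 ± 0.14, adjusted p = 7.12e-05) and in D_MgHCF (-1.12 ± 0.14, adjusted p = 0.000258). Against DOX it was 2.20-fold higher in D_MgHCF (log2 fold change 0.91 ± 0.14, adjusted p = 0.000387). The difference of 0.59 ± 0.14 between D_DXZ and DOX had an unadjusted p of 0.00191 and an adjusted p of 0.255 in limma, so it was not called.

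Stat2 (ENSMUSG00000040033, chromosome 10, 128270559 to 128292849, plus strand), also a subunit of ISGF3, was not called in any of the 6 comparisons. It measured 7.49, 7.83 and 8.54 FPKM in Unt, 8.14, 7.68 and 6.17 FPKM in DOX, and 7.68, 8.99 and 9.86 FPKM in D_DXZ. In D_MgHCF the values were 5.65, 8.98 and 24.8 FPKM, so that a single library was the lowest and another the highest of all 12. No pair of groups was separated. The log2 fold change was -0.11 ± 0.38 (SE) in DOX against Unt and 0.53 ± 0.38 in D_MgHCF against DOX.

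Irf1 (ENSMUSG00000018899, chromosome 11, 53770014 to 53778374, plus strand), a transcription factor induced by interferon gamma and by other inflammatory signals, was low in DOX and D_DXZ and not in D_MgHCF. It measured 17.5, 17.9 and 18.7 FPKM in Unt, 5.75, 2.90 and 1.83 FPKM in DOX and 5.50, 3.36 and 1.86 FPKM in D_DXZ. The D_MgHCF libraries had 20.8, 27.8 and 25.2 FPKM and lay above all other libraries. Irf1 fell in DOX (log2 fold change -2.18 ± 0.33, limma adjusted p = 0.000353) and in D_DXZ (-2.14 ± 0.33, adjusted p = 0.000604). It was 7.05-fold higher in D_MgHCF than in DOX (2.60 ± 0.33, adjusted p = 0.000101) and 6.89-fold higher than in D_DXZ (2.56 ± 0.33, adjusted p = 0.000139). Against Unt the difference of 0.42 ± 0.33 in D_MgHCF was not called (adjusted p = 0.338), although the libraries of these groups did not overlap. D_DXZ and DOX overlapped and differed by 0.04 ± 0.33.

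Irf7 (ENSMUSG00000025498, chromosome 7, 141262706 to 141266481, minus strand), the amplifier of interferon transcription, was the member with higher FPKM in every treated group. It measured 17.4, 18.4 and 19.5 FPKM in Unt, 48.6, 49.8 and 45.1 FPKM in DOX, and 29.4, 56.3 and 40.2 FPKM in D_DXZ. The highest values were those of D_MgHCF, with 92.9, 77.1 and 77.6 FPKM. DOX and D_DXZ overlapped, and the other pairs of groups did not. As deposited, Irf7 rose 2.59-fold in DOX (log2 fold change 1.33 ± 0.19, limma adjusted p = 0.000222), 2.27-fold in D_DXZ (1.10 ± 0.19, adjusted p = 0.00108) and 4.47-fold in D_MgHCF (2.10 ± 0.19, adjusted p = 4.25e-05). D_MgHCF also exceeded DOX by 0.77 ± 0.19 (adjusted p = 0.00600) and D_DXZ by 1.00 ± 0.19 (adjusted p = 0.00142).

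The call of Irf7 in DOX and in D_DXZ depended on the scaling of the libraries. The deposited FPKM carry a median-ratio factor. Its ratio to the summed reads lay from 1.32 to 1.38 in Unt and from 1.26 to 1.43 in D_MgHCF, but only from 0.647 to 0.784 in DOX and from 0.747 to 0.892 in D_DXZ. With the summed reads in its place, Irf7 measured 24.1, 24.9 and 25.8 in Unt and 38.1, 33.6 and 29.2 in DOX, which still did not overlap, with a log2 fold change of 0.41 that was not called. This scaling moved the median of the 11515 genes with a mean FPKM of at least 1 to -0.69 in DOX against Unt, TPM moved it to -1.18 and voom to -0.89, compared with 0.05 as deposited. Relative to that median, Irf7 lay higher by 1.28 as deposited, by 1.10 with summed reads, by 1.18 with TPM (a scale on which the length-corrected values of each library have the same sum), by 1.31 with voom and by 0.62 with quantile normalization. Irf9 lay below the median by more than Irf7 lay above it under each scaling, at -2.08 as deposited and from -2.42 to -1.94 under the others. For Irf1 the same values ran from -2.58 to -2.18, with -2.23 as deposited.

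**Figure D2:**
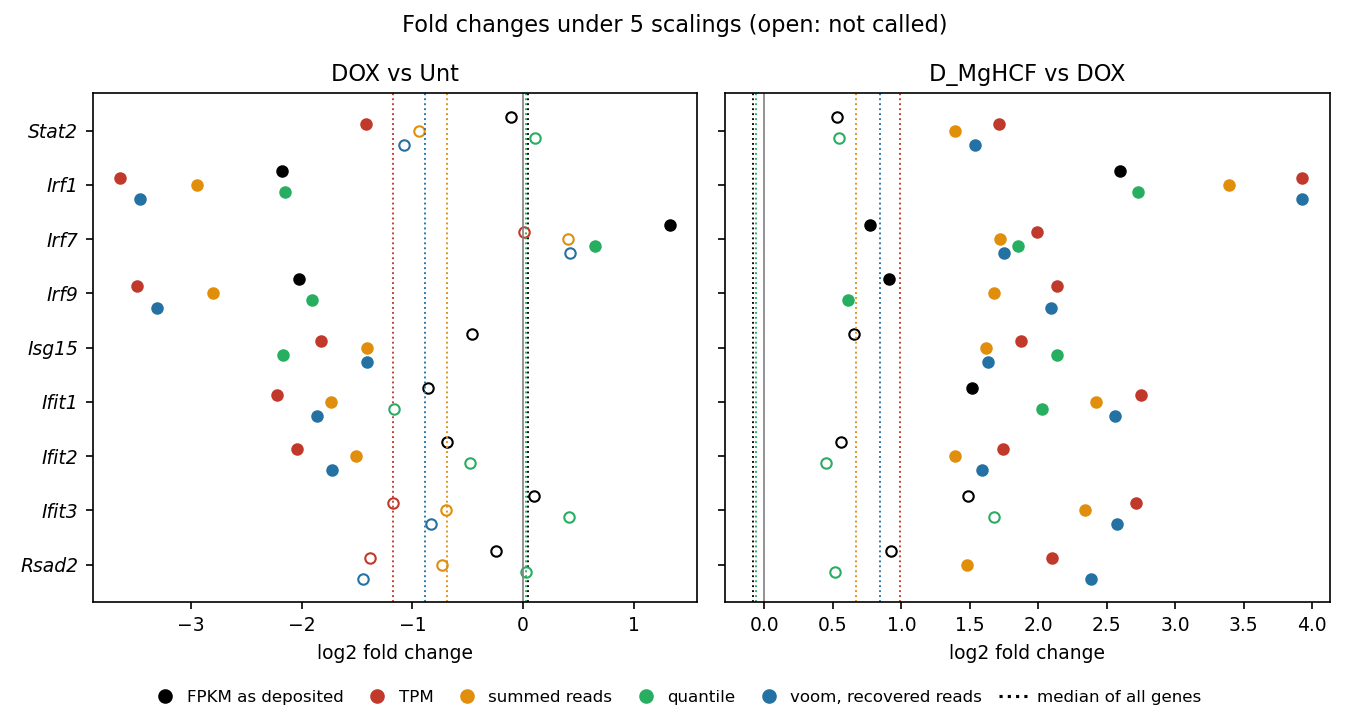
Log2 fold change of each member in DOX against Unt (left) and D_MgHCF against DOX (right) with the deposited FPKM and 4 other scalings (filled symbols: limma adjusted p under 0.05; dotted lines: median of the genes averaging 1 FPKM or more, in the same colour). In DOX against Unt, Irf7 is called with the deposited FPKM and with quantile normalization, and Irf1 and Irf9 are called under all 5.

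Of the effector genes, Isg15 (ENSMUSG00000035692, chromosome 4, 156199424 to 156200818, minus strand), which encodes a ubiquitin-like protein attached to other proteins, had the highest FPKM of the 9 members. It measured 224, 257 and 262 FPKM in Unt, 198, 175 and 165 FPKM in DOX and 135, 135 and 106 FPKM in D_DXZ. The D_MgHCF libraries measured 162, 254 and 548 FPKM and overlapped both Unt and DOX. Unt, DOX and D_DXZ were separated from each other in that falling order, but DOX against Unt (log2 fold change -0.46 ± 0.35, limma adjusted p = 0.376) and D_DXZ against DOX (-0.52 ± 0.35, adjusted p = 0.696) were not called. In DOX against Unt, Isg15 was called lower with the other 4 scalings, at -1.41 with summed reads and -2.17 with quantile normalization. D_DXZ against Unt was just outside the threshold (-0.98 ± 0.35, adjusted p = 0.0502). Isg15 was 2.57-fold higher in D_MgHCF than in D_DXZ (1.18 ± 0.35, adjusted p = 0.0173), and without D_DXZ replicate 3 this difference was 1.06 and was not called, nor was it called in a fit of the 2 groups.

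Ifit1, Ifit2 and Ifit3 encode related RNA-binding proteins of the antiviral response and lie in 1 cluster on the plus strand of chromosome 19. Ifit2 (ENSMUSG00000045932) spans 34550694 to 34576419, Ifit3 (ENSMUSG00000074896) 34583531 to 34588731 and Ifit1 (ENSMUSG00000034459) 34640871 to 34650009. Ifit1 measured 21.4, 22.1 and 20.3 FPKM in Unt, 16.4, 10.8 and 8.01 FPKM in DOX, and 10.1, 5.98 and 6.48 FPKM in D_DXZ. In D_MgHCF its values were 13.8, 33.2 and 85.1 FPKM, with 1 library below and 2 above the Unt range. All DOX and D_DXZ libraries were below Unt, but neither difference was called (-0.86 ± 0.51, limma adjusted p = 0.250 and -1.41 ± 0.51, adjusted p = 0.0578). Both were called lower with summed reads, TPM and voom and in a fit of the 2 groups, but not with quantile normalization. With summed reads they lay at -1.74 and -2.11, where the median of genes with a mean FPKM of at least 1 was -0.69 and -0.62. Ifit1 was higher in D_MgHCF than in DOX (1.52 ± 0.51, adjusted p = 0.0303) and than in D_DXZ (2.08 ± 0.51, adjusted p = 0.00726). The call against DOX was lost without D_MgHCF replicate 2 (1.54) or replicate 3 (0.87) and without DOX replicate 2 (1.49) or replicate 3 (1.30). It was also lost with a replicate block and in a fit of the 2 groups.

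Ifit2 measured 11.2, 9.39 and 8.72 FPKM in Unt, 6.37, 5.50 and 5.15 FPKM in DOX, and 7.67, 4.94 and 5.01 FPKM in D_DXZ. Its D_MgHCF values were 4.97, 6.84 and 19.1 FPKM, which overlapped those of each other group. Unt lay above DOX and D_DXZ without overlap, and no comparison was called. The log2 fold change of DOX against Unt was -0.69 ± 0.37 (SE, limma adjusted p = 0.187) and became a call without D_MgHCF replicate 3, whose removal narrowed the spread shared by the groups and left the fold change at -0.69. Without that library Ifit2 was also called lower in D_MgHCF than in Unt, at -0.65.

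Ifit3 measured 4.81, 6.89 and 6.21 FPKM in Unt and 11.6, 5.36 and 4.11 FPKM in DOX, which spanned the Unt range. It was lower in D_DXZ, with 2.70, 1.84 and 1.63 FPKM, and in D_MgHCF it measured 6.19, 15.9 and 73.1 FPKM. The D_DXZ libraries lay below those of all other groups, with log2 fold changes of -1.19 ± 0.68 against Unt (limma adjusted p = 0.234) and -1.30 ± 0.68 against DOX (adjusted p = 0.590), neither of which was called. D_MgHCF exceeded D_DXZ by 2.78 ± 0.68 (adjusted p = 0.00671), or 15.4-fold between mean FPKM. The differences of D_MgHCF from DOX (1.49 ± 0.68, adjusted p = 0.0909) and from Unt (1.59 ± 0.68, adjusted p = 0.0868) were not called. The near copy Ifit3b shares 97.8% of 1700 aligned bases with Ifit3, so reads may be split between them. Both genes together held 305, 380 and 373 reads in Unt, 475, 184 and 102 in DOX, 101, 59 and 47 in D_DXZ and 391, 1220 and 4930 in D_MgHCF, and Ifit3 took 58.0% to 81.4% of them.

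Rsad2 (ENSMUSG00000020641, chromosome 12, 26442746 to 26456452, minus strand), which encodes the antiviral enzyme viperin, was the member with the lowest levels. It measured 1.31, 1.54 and 1.24 FPKM in Unt, 1.47, 1.01 and 0.578 FPKM in DOX, and 0.657, 0.792 and 0.380 FPKM in D_DXZ. The D_MgHCF libraries had 1.09, 2.08 and 7.40 FPKM. These rested on 22 to 787 reads per library, whereas Isg15 had 1067 to 10168. D_DXZ was separated from Unt and from D_MgHCF, and Rsad2 was called higher in D_MgHCF than in D_DXZ (1.24 ± 0.41, limma adjusted p = 0.0309). That call was lost without D_DXZ replicate 1 (1.26), 2 (1.32) or 3 (1.13), with a replicate block, with quantile normalization (0.92) and in a fit of the 2 groups. No other comparison of Rsad2 was called.

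**Figure D3:**
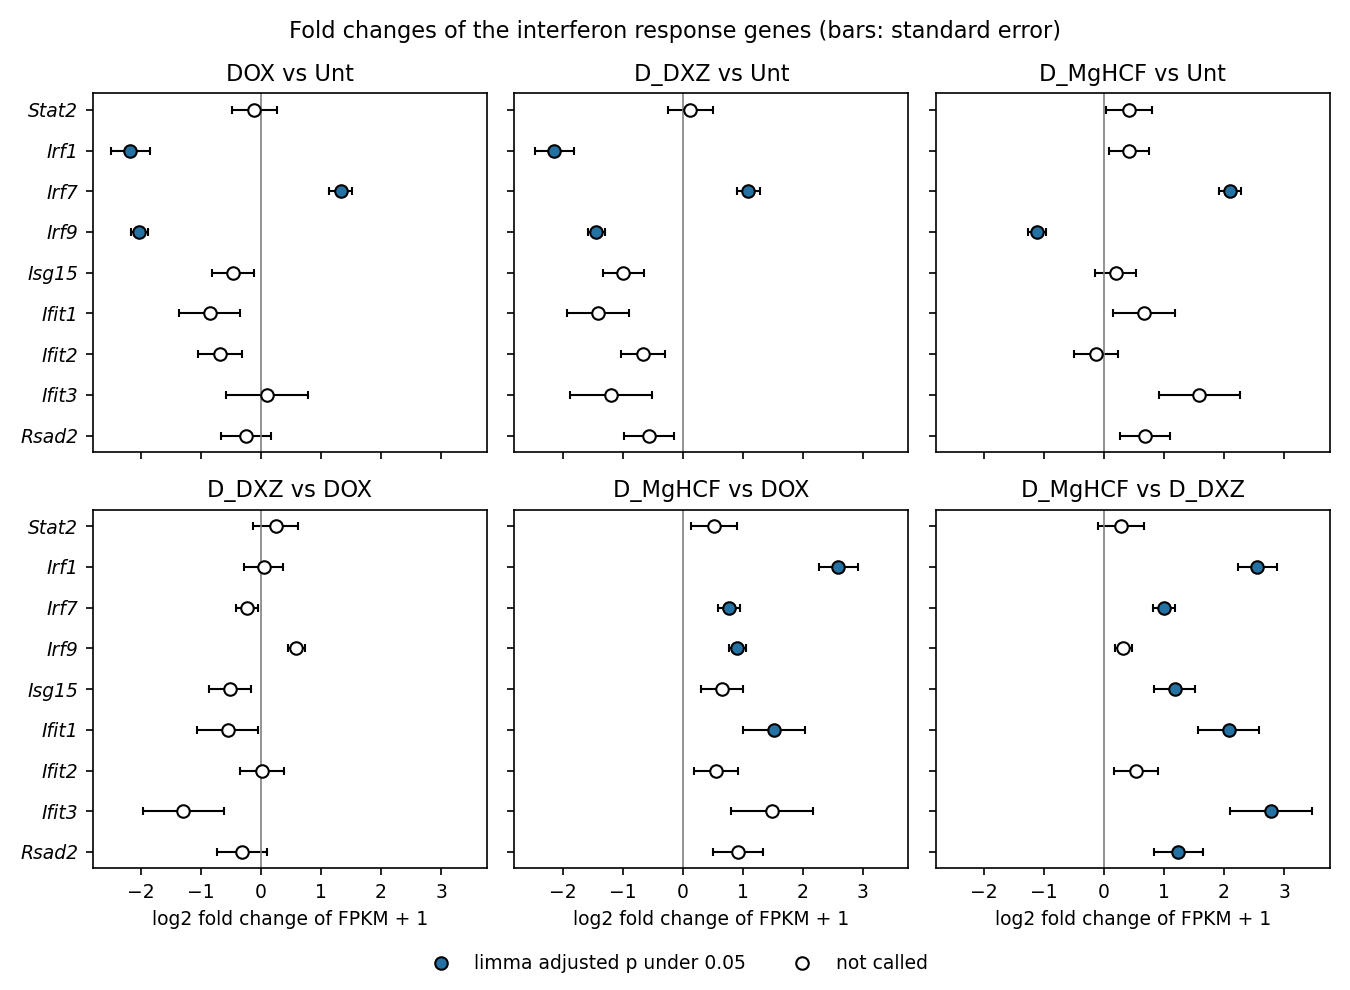
Log2 fold change of FPKM + 1 with its standard error for the 9 members in the 6 comparisons, with filled symbols for a limma adjusted p under 0.05. All 9 members are above 0 in D_MgHCF against DOX and against D_DXZ, with 4 and 6 called, and the standard errors of Ifit1 and Ifit3 are the widest.

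Dexrazoxane and MgHCF, both given with doxorubicin, were compared directly at the single time measured. Differences of D_MgHCF from D_DXZ were positive for 9 of 9 members with a median of 1.18, beside a median of 0.06 over all genes tested. Their mean FPKM exceeded those in D_DXZ by 15.4-fold for Ifit3, 6.89-fold for Irf1, 5.85-fold for Ifit1, 5.77-fold for Rsad2, 2.57-fold for Isg15 and 1.97-fold for Irf7, which were the members called. With D_MgHCF replicates 1 and 2 only, these folds were 5.38-fold for Ifit3, 6.81-fold for Irf1, 3.12-fold for Ifit1, 2.59-fold for Rsad2, 1.66-fold for Isg15 and 2.02-fold for Irf7, and the log2 fold change of Stat2 turned to -0.27 without replicate 3. Irf9 differed by 0.32 ± 0.14 (limma adjusted p = 0.0869) and was called without D_DXZ replicate 1, at 0.45. Stat2 and Ifit2 differed by 0.29 ± 0.38 and 0.54 ± 0.37 and were not called. The libraries of D_DXZ and D_MgHCF did not overlap for 6 members and for 50.4% of all genes tested.

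Within D_MgHCF the libraries differed widely for the effector genes. For 6 members (Stat2, Isg15, Ifit1, Ifit2, Ifit3 and Rsad2), replicate 1 was the lowest and replicate 3 the highest library, with ratios of replicate 3 to replicate 1 from 3.39 for Isg15 to 11.8 for Ifit3. Irf1, Irf7 and Irf9 differed by at most 1.37-fold among the same libraries. In the other groups the widest members differed by 1.43-fold in Unt (Ifit3), 3.15-fold in DOX (Irf1) and 2.95-fold in D_DXZ (Irf1). The median SD of log2(FPKM + 1) within D_MgHCF was 0.921 over the 9 members and 0.303 over the 11515 genes with a mean FPKM of at least 1. Replicate 3 was the highest library and at least 2 times replicate 1 for 6 of 9 members, for 22 of the 42 other interferon-stimulated genes with a mean FPKM of at least 1, and for 12.5% of the 11515 genes. The same held for 4 of 16 genes of the interferon gamma and antigen presentation list.

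**Figure D4:**
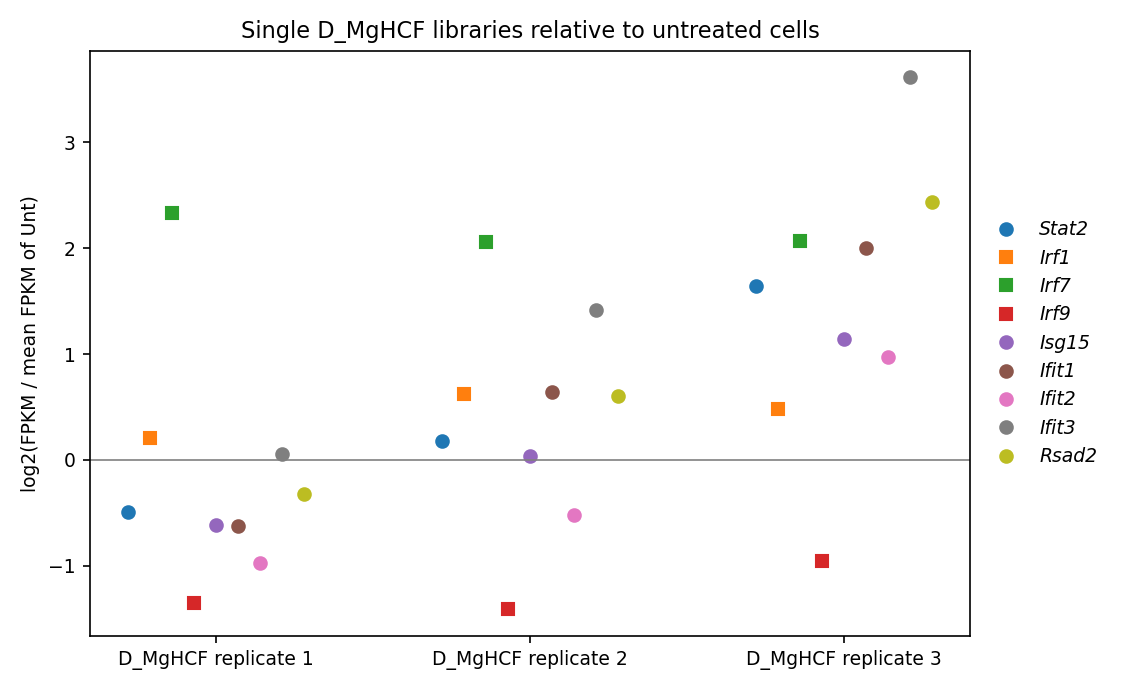
Log2 ratio of the FPKM of each member in single D_MgHCF libraries to its mean FPKM in Unt (circles: the 6 members that are lowest in replicate 1 and highest in replicate 3; squares: Irf1, Irf7 and Irf9). The circles lie near or below 0 in replicate 1 and above 0 in replicate 3, while the squares stay within 1.37-fold of each other for each gene.

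Replicate 3 also stood apart in other ways. Its share of reads on mitochondrial genes was 1.76%, compared with 3.16% and 2.90% in replicates 1 and 2 and 1.19% to 1.41% in Unt, and fewer genes had reads in it (23368 of 54345) than in the other D_MgHCF libraries. The part of these differences in the results was not tested. Without it, D_MgHCF against DOX gave 3 calls (Irf1, Irf7 and Irf9) with log2 fold changes of 2.58, 0.81 and 0.79, and D_MgHCF against D_DXZ gave the same 6 members as with it, among them Isg15 at 0.70, Rsad2 at 0.66, Ifit1 at 1.43 and Ifit3 at 1.87. Of all 25044 genes, 9515 were then higher and 5300 lower than in DOX, and 9059 higher and 5098 lower than in D_DXZ. Stat2 then lay at -0.02 against DOX, Isg15 at 0.18, Ifit2 at 0.04, Ifit3 at 0.57 and Rsad2 at 0.35, none of them called. Without replicate 1 instead, 8 members were called higher in D_MgHCF than in DOX, all but Ifit2, where 7136 of all genes were higher and 4902 lower. Leaving out replicate 3 also raised the calls in D_DXZ against Unt from 3 to 7, with Isg15, Ifit1, Ifit2 and Ifit3 added as lower. Over all genes, the calls lower in that comparison rose from 4515 to 5427, and those higher from 3979 to 4621.

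The ligands of the pathway were close to absent. The 10 interferon genes listed, among them Ifnb1, Ifng and members of the alpha and lambda families, had 1 to 3 reads in total in each library of Unt, DOX and D_DXZ and 12, 8 and 6 reads in those of D_MgHCF. Of the D_MgHCF reads, Ifnb1, the type I interferon made by most cell types, took 10, 7 and 4. It had 0, 0 and 1 read in Unt, 0, 2 and 2 in DOX and 0, 1 and 0 in D_DXZ. limma called Ifnb1 higher in D_MgHCF than in Unt (0.46 ± 0.11, adjusted p = 0.00761) and than in DOX (0.29 ± 0.11, adjusted p = 0.0428), on the log2(FPKM + 1) scale, which makes changes of such low genes small. The call against DOX was lost when any of 10 of the 12 libraries was left out, with values from 0.18 to 0.33. It was also lost with quantile normalization (0.02), a pseudocount of 0.1, no filter, a fit of the 2 groups or a replicate block. Ifne, the only other interferon gene tested, was not called in any of these comparisons. The library with the fewest Ifnb1 reads of D_MgHCF, replicate 3, was the one with the highest Isg15, Ifit1, Ifit2, Ifit3 and Rsad2. With 10, 7 and 4 reads the order of these libraries in Ifnb1 is uncertain, and a link between Ifnb1 and these genes was not tested.

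Receptors, kinases and feedback regulators changed in both directions. Of 15 genes tested in this list, 3 were higher and 7 lower in DOX than in Unt, 5 higher and 4 lower in D_MgHCF against Unt, and 6 higher and 4 lower in D_MgHCF than in DOX. The shares of all genes in these comparisons were 18.6% and 19.9%, 24.3% and 15.7%, and 31.4% and 20.1%. With summed reads 1 was higher and 12 lower in DOX than in Unt, where 2075 of all 25044 genes were higher and 8303 lower. The kinase Jak1 rose from 20.2 ± 0.476 to 60.5 ± 6.11 FPKM in DOX (SD, n = 3, log2 fold change 1.53 ± 0.13, limma adjusted p = 1.34e-05). Socs3, a feedback inhibitor of cytokine signalling, fell by 1.59 ± 0.19 in DOX (adjusted p = 7.13e-05) and was higher by 2.10 ± 0.19 in D_MgHCF than in DOX (adjusted p = 1.30e-05). Pias1, a ligase for the small modifier SUMO, fell by 1.57 ± 0.19 in DOX (adjusted p = 8.68e-05). The gamma receptor subunit Ifngr2 rose by 1.02 ± 0.15 with the deposited FPKM, by 0.11 without a call with summed reads, and was at -0.30 without a call with TPM. Usp18, an interferon-induced protease that removes ISG15 and dampens the receptor, measured 29.8, 40.5 and 80.9 FPKM in D_MgHCF and 14.6 to 17.3 FPKM in Unt, with a rise over DOX of 1.64 ± 0.30 (adjusted p = 0.00117). In that gene, too, D_MgHCF replicate 3 was the highest library.

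Of the sensors of foreign nucleic acid and their adaptors, 17 genes were tested, of which 0 were higher, 8 lower and 9 not called in DOX against Unt (18.6% and 19.9% of all genes higher and lower). D_MgHCF against Unt gave 3 higher, 1 lower and 13 not called (24.3% and 15.7%), and D_MgHCF against DOX gave 9 higher and 0 lower (31.4% and 20.1%). With quantile normalization these were 0 higher and 6 lower in DOX against Unt and 9 higher and 3 lower in D_MgHCF against DOX. Of all 25044 genes, that scaling called 4170 higher and 4340 lower, and 4626 higher and 4914 lower, in the same comparisons. The adaptor Ticam1 fell from 7.86 ± 0.342 to 1.16 ± 0.468 FPKM in DOX (SD, n = 3, log2 fold change -2.05 ± 0.25, limma adjusted p = 7.85e-05). Mb21d1, which encodes the DNA sensor cGAS, fell by 1.32 ± 0.22 in DOX (adjusted p = 0.000725) and was higher by 1.72 ± 0.22 in D_MgHCF than in DOX (adjusted p = 0.000118). Mavs, the adaptor of the RNA sensors, fell by 0.80 ± 0.21 in DOX (adjusted p = 0.00994). Trim25, a ubiquitin ligase acting on the RNA sensor RIG-I, fell by 1.12 ± 0.34 in DOX (adjusted p = 0.0242), a call that was lost without any 1 of the Unt libraries, DOX replicate 2 or DOX replicate 3, with values from -1.17 to -0.93.

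Other members of the interferon regulatory factor family and its binding proteins gave 0 higher and 4 lower of 9 in DOX against Unt, where 18.6% of all genes were higher and 19.9% lower. They gave 6 higher and 0 lower in D_MgHCF against DOX, where the shares were 31.4% and 20.1%. Irf3, which acts with IRF7 downstream of the sensors, measured 13.9 ± 0.627 FPKM in Unt and 13.7 ± 1.15 FPKM in DOX (SD, n = 3) and was not called. The corepressor Irf2bp1 fell from 16.3 ± 1.42 to 1.80 ± 0.963 FPKM in DOX (log2 fold change -2.68 ± 0.33, limma adjusted p = 9.72e-05) and was higher by 2.03 ± 0.33 in D_MgHCF than in DOX (adjusted p = 0.000532). Irf2bpl, of the same family, fell by 1.59 ± 0.27 in DOX (adjusted p = 0.000696) and was higher by 1.89 ± 0.27 in D_MgHCF than in DOX (adjusted p = 0.000203).

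The other interferon-stimulated genes did not move as 1 group. Of 49 tested, 13 were higher and 9 lower in DOX than in Unt (median log2 fold change -0.04), 11 higher and 3 lower in D_MgHCF against Unt (0.27), and 17 higher and 12 lower in D_MgHCF than in DOX (0.21), beside the same shares of all genes. The split in DOX against Unt turned with the scaling, to 5 higher and 23 lower with summed reads and 2 higher and 30 lower with TPM, and in D_MgHCF against DOX it became 33 and 4 with summed reads. All 25044 genes shifted likewise, with 2075 higher and 8303 lower in DOX against Unt with summed reads and 1111 and 10227 with TPM. In D_MgHCF against DOX, summed reads gave 12376 of all genes higher and 2401 lower. The small membrane proteins Ifitm2 and Ifitm3, which restrict virus entry, were among the abundant ones. Ifitm2 rose from 119 ± 6.18 to 472 ± 65.5 FPKM in DOX as deposited (SD, n = 3, 1.97 ± 0.15, limma adjusted p = 1.18e-05), and its values under other scalings are not reported here. Ifitm3 rose by 1.62 ± 0.21 (adjusted p = 0.000118) and Bst2, which tethers virus particles to the cell, by 1.40 ± 0.19 (adjusted p = 0.000158), but with quantile normalization they lay at -0.35 and -0.31. In the other direction, Rtp4 fell by 1.71 ± 0.23 in DOX (adjusted p = 0.000156). In D_MgHCF against DOX, the antibody receptor Trim21 was higher by 2.37 ± 0.28 (adjusted p = 7.16e-05), while Ifi27 fell by 2.17 ± 0.24 (adjusted p = 4.25e-05). Ifit3b, the near copy of Ifit3, was higher by 1.87 in D_MgHCF than in DOX and by 1.09, not called, without D_MgHCF replicate 3. Ifit1bl1, related to Ifit1, measured 0.137 ± 0.0413 FPKM in Unt, 0.224 ± 0.140 FPKM in DOX and 1.43 ± 0.335 FPKM in D_MgHCF, and was higher by 0.98 ± 0.11 in D_MgHCF than in DOX (adjusted p = 6.01e-05).

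Genes of the interferon gamma response and of antigen presentation gave 8 higher and 2 lower of 24 in DOX against Unt, 17 higher and 1 lower in D_MgHCF against Unt, and 12 higher and 6 lower in D_MgHCF against DOX, beside 18.6% and 19.9%, 24.3% and 15.7%, and 31.4% and 20.1% of all genes. The split depended on the scaling, with 4 higher and 4 lower in DOX against Unt with summed reads and 4 and 7 with TPM, and 16 and 0 and 17 and 0 in D_MgHCF against DOX. Of all 25044 genes, 2075 were higher and 8303 lower in DOX with summed reads, and 1111 and 10227 with TPM. In D_MgHCF against DOX these were 12376 and 2401, and 13504 and 1691. Without D_MgHCF replicate 3 the list counts in D_MgHCF against Unt were again 17 and 1, where 8361 of all genes were higher and 4685 lower. B2m, the light chain of MHC class I, rose from 305 ± 12.2 to 1602 ± 285 FPKM in DOX (SD, n = 3, 2.38 ± 0.25, limma adjusted p = 3.66e-05) and measured 753 ± 164 FPKM in D_MgHCF. The heavy chain H2-D1 rose by 1.93 ± 0.22 (adjusted p = 5.40e-05) and Tapbp, which loads peptides on class I, by 1.98 ± 0.19 (adjusted p = 2.26e-05) in DOX. The rises of B2m, H2-D1 and Tapbp are those of the deposited FPKM, and their values under other scalings are not reported here. The immunity-related GTPases Irgm2 and Igtp were higher in D_MgHCF than in DOX, by 2.67 ± 0.34 (adjusted p = 0.000111) and 2.40 ± 0.30 (adjusted p = 9.83e-05). In D_DXZ against DOX no gene of these lists was called.

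**Figure D5:**
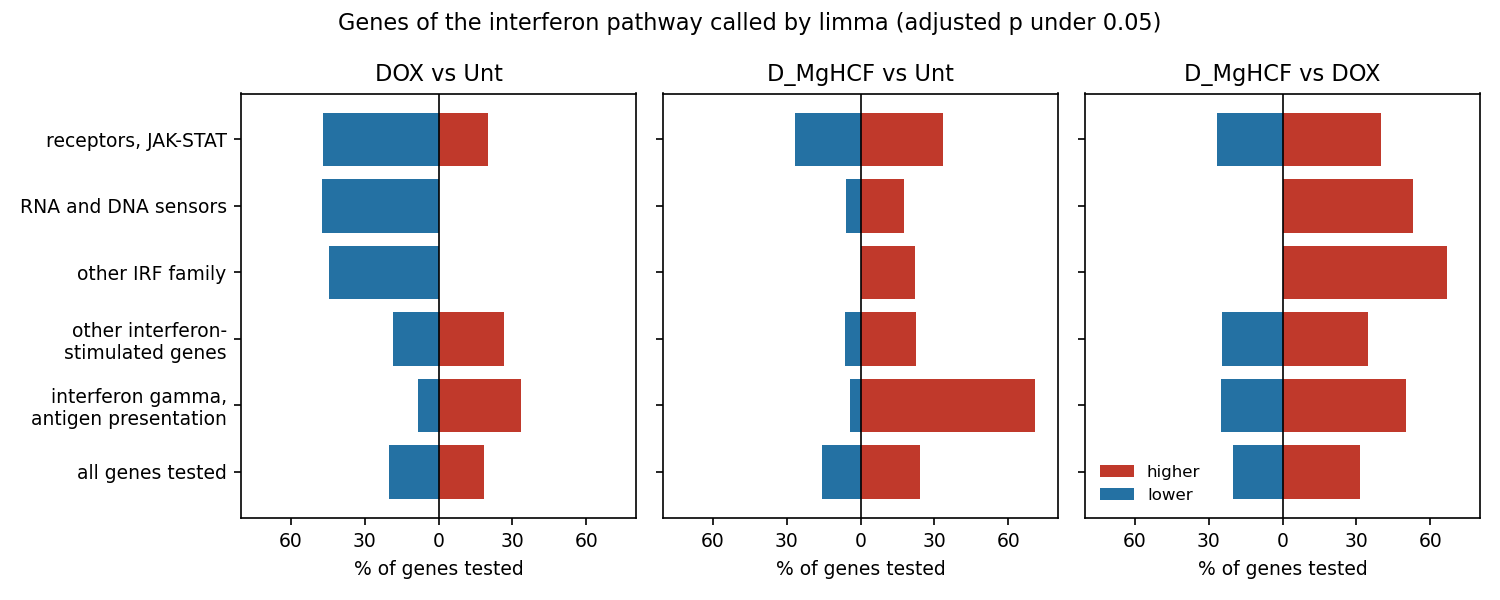
Percentage of the genes tested that were called higher and lower (limma adjusted p under 0.05) in each pathway list and over all genes tested, by comparison. Of the 17 sensors tested, 8 are lower and 0 higher in DOX against Unt, and 9 are higher and 0 lower in D_MgHCF against DOX. The other interferon-stimulated genes are called in both directions.

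The genes with the most similar pattern were sought by the root mean square difference of gene-centred log2(FPKM + 1) over the 12 libraries, among 13265 genes. For Isg15 the nearest was Oasl2 (0.118), followed by Oas3, and for Rsad2 it was Mx2 (0.164), followed by Oasl2. These are antiviral genes of the list above. The nearest to Ifit3 were Foxo6 (0.269) and Ifit3b (0.270). Irf9 was nearest to Crebbp (0.102) and Lca5, Irf1 to Tmem115 (0.154) and Tbcc, and Irf7 to Icam5 (0.144) and Aldh4a1. For Stat2 they were Orai2 and Gpd1l, and for Ifit1 Osgin1 and Rhbdf2.

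Some members share sequence or position with other genes, for which reads cannot be assigned with certainty. Besides Ifit3 and Ifit3b, stretches of at least 95% identity were found between Isg15 and AC151275.1 (482 bases), Irf9 and Gm38002 (180 bases) and Stat2 and Gm25072 (152 bases). By gene start and end, Irf7 overlaps Phrf1 on the opposite strand by 45 bases, and Irf9 overlaps Rnf31 on the same strand by 123 bases. Irf1 overlaps Gm17334 on the opposite strand by 907 bases, but Gm17334 had at most 16 reads in any library.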

How the data were processed

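The authors deposited FPKM per gene for 12 libraries of poly(A) RNA in 4 groups of 3, with gene lengths and positions. The submitters' processing notes name HISAT2 2.0.5 and the builds GRCm38 and mm10, and the counting program and annotation release are not given in the sources used here. Every deposited FPKM above 0 gave a whole number of reads (100% of values within 0.05) when multiplied by gene length and divided by the worth of 1 read, and these recovered reads give the depths.

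Groups were taken from the labels, and 0 sample columns were unused. limma 3.58.1 in R 4.3.3 was fitted to log2(FPKM + 1) of the 25044 genes above 0 in at least 3 libraries, with all 12 libraries in 1 fit and a mean-variance trend, and p-values were adjusted by Benjamini-Hochberg over all genes tested. The fit was tested on simulated data with the same spread in all groups, which does not cover the wider spread within D_MgHCF. An exact permutation test of 3 against 3 libraries cannot go below 0.1 and was not used. Alternatives were another pseudocount (0.1), other filters, unadjusted p, a fit of the 2 groups, a replicate block, TPM, quantile normalization, summed reads, voom on the recovered reads and leaving out each library. Their use on the pathway lists and named pathway genes was added after seeing the data. Near copies were sought with blastn 2.17.0, and promoters were taken from RefSeq.

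Genes were named by rule. These were the members and, from each pathway list, the 2 most abundant genes and the 2 with the largest called changes in DOX against Unt and in D_MgHCF against DOX, then the 2 genes nearest in pattern to each member, and near copies. Some genes under the rule are not reported here. The members and lists were chosen with earlier results of these data known.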

Additional observations from a re-analysis of the deposited data

How the results depend on the processing

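Over 22 alternatives, 1084 of 1188 values of the members kept their direction and side of the threshold or stayed uncalled, 19 lost a call, 84 gained one, 1 reversed and 23 uncalled values changed sign. In D_DXZ against Unt, 3 members were called, and 5 with a pseudocount of 0.1, with a filter of FPKM of at least 1 in 3 libraries, at an unadjusted p, with summed reads or with voom on recovered reads, 7 with TPM and 8 in a fit of the 2 groups. Of all 25044 genes, 3979 were higher and 4515 lower as deposited. The counts were 4104 and 4502 with the pseudocount and 4679 and 5445 at an unadjusted p. With summed reads they were 1913 and 7946, with voom 1965 and 8201 and with TPM 913 and 10083. The fit of the 2 groups gave 4847 and 5671, and the filter 4079 and 4323 of 12434 genes. In DOX against Unt, the 3 calls became 5 with summed reads or voom and 6 with TPM or a fit of the 2 groups. Of all genes, 4649 were higher and 4973 lower as deposited, 2075 and 8303 with summed reads and 2109 and 8787 with voom. TPM gave 1111 and 10227, and the fit of the 2 groups 5416 and 5764. In D_MgHCF against DOX, the 4 calls became 9 with TPM, summed reads or voom and 3 in a fit of the 2 groups. Of all genes, 7863 were higher and 5027 lower as deposited, 13504 and 1691 with TPM and 12376 and 2401 with summed reads. With voom they were 12826 and 2385, and in the fit of the 2 groups 4901 and 4277. In D_MgHCF against D_DXZ, the 6 calls became 9 with TPM or voom, 8 with summed reads, 5 with quantile normalization and 4 in a fit of the 2 groups. Of all genes, 7358 were higher and 4757 lower as deposited, 12801 and 1559 with TPM and 11677 and 2343 with voom. Summed reads gave 11426 and 2382, quantile normalization 4587 and 4840, and the fit of the 2 groups 4326 and 3788. In D_DXZ against DOX, the 0 calls became 1 at an unadjusted p, where 1143 of all genes were higher and 1245 lower. Irf7 in D_DXZ against Unt lay at -0.053 with TPM. Among the other genes in DOX against Unt, Ifngr2 lay at -0.30 with TPM, and Ifitm3 at -0.35 and Bst2 at -0.31 with quantile normalization. The cause was not tested beyond the shift of the median of all genes.

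Leaving out 1 library gave 3 to 4 members called in DOX against Unt, 3 to 7 in D_DXZ against Unt, 2 to 5 in D_MgHCF against Unt, 0 in D_DXZ against DOX, 3 to 8 in D_MgHCF against DOX and 4 to 6 in D_MgHCF against D_DXZ. The extremes of 7 and 8 members came without D_MgHCF replicate 3 and replicate 1. Of all genes, 4098 to 5241 were then higher and 4303 to 5716 lower in DOX against Unt. The counts were 3405 to 4621 and 3631 to 5427 in D_DXZ, and 4071 to 8361 and 3156 to 4685 in D_MgHCF, against Unt. D_MgHCF against DOX gave 6092 to 9515 and 4556 to 5300, and D_MgHCF against D_DXZ 5758 to 9059 and 4295 to 5098. D_DXZ against DOX gave at most 3 and 6. With the replicate number as a block, the counts of members were 3, 3, 2, 0, 3 and 5 in the order DOX, D_DXZ and D_MgHCF against Unt, D_DXZ and D_MgHCF against DOX, and D_MgHCF against D_DXZ, with Ifit1 lost against DOX and Rsad2 against D_DXZ. In the same order, all genes called higher were 4572, 3892, 5756, 0, 7648 and 7118, and lower 4833, 4379, 3796, 0, 4970 and 4664. Whether same-numbered libraries share a culture or day is not given in the labels. Of 18 same-numbered pairs, 2 had a correlation of deviations over 0.1 (range -0.314 to 0.306). These were DOX and D_DXZ in replicate 1 (0.306) and replicate 3 (0.220), and the lowest was D_DXZ and D_MgHCF in replicate 1. Correlations of deviations from means of 3 libraries cannot decide whether the libraries were paired. Depth limited Rsad2 and Ifit3 most among the members, with as few as 22 and 38 reads.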
